A study of Mus musculus with 6 samples.

Results

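This account covers 9 transcription factors of the rhombic lip, the dorsal edge of the hindbrain in which *Atoh1*-expressing progenitors arise. They are the Bar-class homeobox genes *Barhl1* and *Barhl2*, the homeobox gene *Tlx3*, the POU genes *Pou4f1*, *Pou4f2* and *Pou4f3*, the LIM-homeobox gene *Lhx2*, the paired-box gene *Pax6* and the TALE homeobox gene *Meis1*. They were picked by name, with earlier results of the same libraries known, from 54532 genes in the count table. 8 of the 9 passed the filter on low counts, and *Pou4f3* did not. Because the choice was made with the difference between the groups in view, the differences of these 9 genes are given as a description, without p-values.

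The study examined what loss of the transcriptional regulator *Tox3* does to the developing mouse cerebellum. Poly(A) RNA of whole cerebella at postnatal day 1 (P1) was sequenced from 3 control littermates of genotype Tox3f/f and 3 mutants of genotype Nestin-cre;Tox3f/f. Both groups carry the floxed *Tox3* alleles, and no library came from a mouse with the Cre transgene and an intact *Tox3*, so the effects of the transgene and of the deletion cannot be told apart. The Nestin promoter drives Cre in neural progenitors throughout the nervous system, so the deletion was not limited to the rhombic lip lineage. Libraries are given below as control 1 to 3 and mutant 1 to 3, as they are labelled. In bulk RNA, fewer cells of a type and less RNA of a gene per cell cannot be told apart, and this holds for each difference below.

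The rhombic lip gives rise to the glutamatergic neurons of the cerebellum, among them granule neuron progenitors (GNPs), which multiply in the external granule layer after birth, the excitatory nuclear neurons and the unipolar brush cells. *Atoh1*, a basic helix-loop-helix factor, is required for this lineage and binds a DNA sequence called the E-box. Homeobox factors expressed in *Atoh1* descendants help to set the fate, migration and survival of these neurons, and in the spinal cord and inner ear the Bar-class, LIM and POU factors act in *Atoh1*-dependent neurons and hair cells as well.

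The libraries held between 15391854 and 17178478 counts, so that 3 counts, used as the detection floor of a library, corresponded to at most 0.196 CPM (counts scaled to a library total of 1000000). The whole-gene count of *Tox3* was 987, 968 and 1003 in the controls and 959, 970 and 951 in the mutants (log2 fold change −0.11, standard error (SE) 0.06, edgeR adjusted p = 0.252). This count sums all exons, and the exon removed by Cre is not named in the sources used here, so it does not check the labels. *Atoh1* had 501, 491 and 481 counts in the controls and 10, 4 and 4 in the mutants (log2 fold change −6.40, SE 0.19, edgeR adjusted p = 8.85e-08). The Y-linked gene *Ddx3y* exceeded 10 CPM in 1 of 3 control and 2 of 3 mutant libraries, so both groups held both sexes. Hindbrain markers summed to 0.911–1.56 CPM in the controls and 1.499–1.87 CPM in the mutants, midbrain markers to 8.67–11.9 and 8.08–16.1 CPM, and erythrocyte markers to 96.9–103 and 80.2–114 CPM. None of the 4 tested midbrain or 4 tested erythrocyte markers was called. Choroid plexus markers summed to 73.3–139 CPM in the controls and to 192, 10.6 and 741 CPM in mutants 1, 2 and 3, with none of 4 called. Meninges markers summed to 189–207 and 257–306 CPM, and 1 of 4 (*Col1a1*) was called higher.

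Promoter sequence is shown for some members called lower in the mutant (*Barhl1*, *Barhl2* and *Tlx3*) and some not called (*Pou4f1* and *Meis1*), since the E-box is the motif that *Atoh1* binds. *Pou4f2*, *Lhx2* and *Pax6* are not printed. The printed stretches differ in place and length, so their E-boxes are no measure of frequency. That is given below over the full 250 bases. The sequences are from RefSeq on GRCm38.p6, the build of the count table, and 8 of the 9 genes (all but *Pou4f3*) were matched in the promoter table. Each is printed 5′ to 3′ on the minus strand, upstream of the annotated start, with E-boxes (CANNTG, which also covers its reverse complement) in capitals. *Barhl1* is at chr2:28916669-28916818, *Barhl2* at chr5:106458167-106458286, *Tlx3* at chr11:33203590-33203739, *Pou4f1* at chr14:104468030-104468129 and *Meis1* at chr11:19019110-19019169.
Barhl1: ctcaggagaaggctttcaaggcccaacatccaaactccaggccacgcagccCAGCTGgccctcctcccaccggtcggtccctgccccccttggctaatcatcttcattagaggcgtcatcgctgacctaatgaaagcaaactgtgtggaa
Barhl2: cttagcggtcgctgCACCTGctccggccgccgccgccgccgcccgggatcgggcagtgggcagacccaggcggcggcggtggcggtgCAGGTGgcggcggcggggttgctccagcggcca
Tlx3: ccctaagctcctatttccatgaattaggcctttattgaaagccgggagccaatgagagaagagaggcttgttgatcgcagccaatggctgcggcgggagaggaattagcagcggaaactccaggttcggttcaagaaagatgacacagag
Pou4f1: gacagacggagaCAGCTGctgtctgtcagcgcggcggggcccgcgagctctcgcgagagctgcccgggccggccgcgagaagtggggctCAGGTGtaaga
Meis1: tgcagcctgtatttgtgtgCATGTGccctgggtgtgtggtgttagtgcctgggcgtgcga

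In the 250 bases before the start, *Barhl1* held a CAGCTG 99 bases upstream, and its second annotated start held another CAGCTG 15 bases upstream. *Barhl2* held a CACCTG and a CAGGTG, which are reverse complements of each other, 106 and 33 bases upstream. *Pou4f1* held a CAGCTG 118 and a CAGGTG 41 bases upstream, and *Meis1* a CATGTG 181 bases upstream. *Tlx3*, *Pou4f2*, *Lhx2* and the first start of *Pax6* held no E-box in this window, and the second start of *Pax6* held a CAAATG 20 bases upstream. Of the 11 promoters of the 8 tested members, 6 held any E-box, against 66.2% of all 32851 promoters in the table, and 3 held CAGCTG, against 13.0%. E-boxes thus occurred both in members that were called lower and in members that were not. The homeodomain core TAATTA, found in 4.84% of all promoters on either strand, occurred in none of the 11. GC content ranged from 47.6% at the second start of *Pax6* and 48.8% in *Tlx3* to 78.0% in *Pou4f1*, against a median of 52.4% over all promoters. A match is a description of these letters and shows no binding.

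Of the 8 members tested, 5 were called lower in the mutant and none higher. Calls required a log2 fold change beyond 0.5 and an adjusted p under 0.01 from the quasi-likelihood test of edgeR. Over all 17505 tested genes 3.63% were called lower and 3.03% higher, 6.66% in all, and since the members were chosen on this contrast nothing is read from the comparison with that share. The called members were *Tlx3*, *Pou4f2*, *Barhl1*, *Barhl2* and *Pax6*. *Meis1*, *Pou4f1* and *Lhx2* were not called. The 3 mutant values lay below the 3 control values in 6 of the 8, the called 5 and *Meis1*, and no member was separated in the other direction. Of all tested genes 20.1% showed such separation downward, 20.4% upward and 40.5% in either direction. The median log2 fold change of the 8 was −1.28, and that of all tested genes −0.0070.

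**Figure D1:**
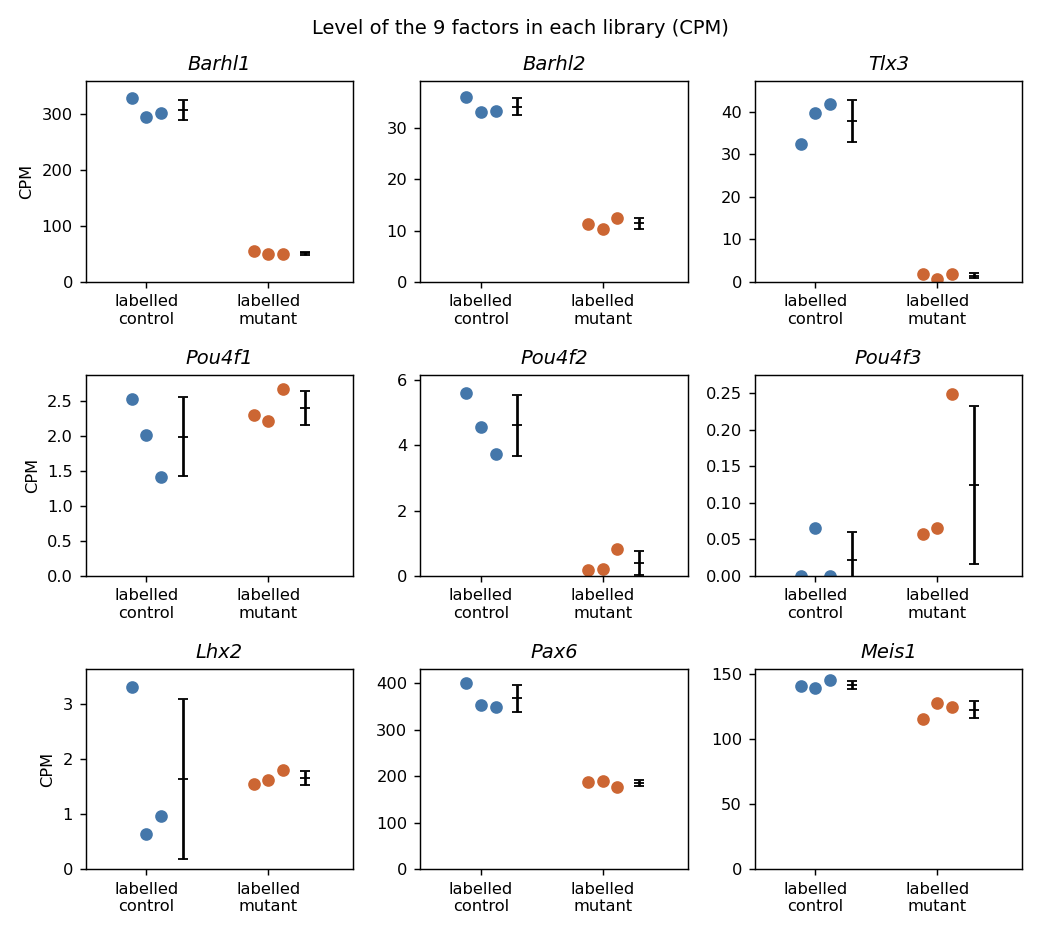
Level of each of the 9 factors in CPM in the 3 libraries labelled control (blue) and the 3 labelled mutant (orange), with the mean and SD of each group (n = 3) as the black bar beside the points and a linear axis from 0 in each panel. The groups are separated in *Barhl1*, *Barhl2*, *Tlx3*, *Pou4f2*, *Pax6* and *Meis1*, and overlap in *Pou4f1*, *Pou4f3* and *Lhx2*, where control 1 of *Lhx2* stands at 3.32 CPM.

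*Barhl1* (ENSMUSG00000026805, minus strand of chromosome 2, 28907679 to 28916668) and *Barhl2* (ENSMUSG00000034384, minus strand of chromosome 5, 106452523 to 106458166) are the mammalian Bar-class homeobox genes. *Barhl1* acts in the migration and survival of granule neurons, and both are expressed in *Atoh1*-derived neurons. *Barhl1* stood at 328, 294 and 301 CPM in controls 1 to 3 and at 54.3, 50.05 and 48.8 CPM in mutants 1 to 3. Every mutant library lay far below every control, and the spread within each group was small beside the gap. The fitted level was 6.02-fold lower in the mutant (log2 fold change −2.59, SE 0.06). *Barhl2* stood at 36.0, 33.1 and 33.3 CPM in the controls and at 11.4, 10.4 and 12.5 CPM in the mutants. These groups were separated too, with a 2.99-fold lower level in the mutant (log2 fold change −1.58, SE 0.09). The ratio of *Barhl1* to *Barhl2*, taken from FPKM (fragments scaled by gene length and by library size) so that gene length is accounted for, was 5.33 ± 0.07 in the controls and 2.67 ± 0.31 in the mutants (SD, n = 3). *Barhl1* was thus the more reduced of the pair, in each mutant library.

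*Tlx3* (ENSMUSG00000040610, minus strand of chromosome 11, 33200752 to 33203589) encodes a homeobox factor known for selecting a glutamatergic over a GABAergic fate in the dorsal spinal cord. It had 497, 610 and 651 counts in the controls and 30, 11 and 30 in the mutants, which corresponded to 32.4, 39.7 and 41.8 CPM and to 1.73, 0.717 and 1.87 CPM. The transcript remained above the detection floor in each mutant library, at a level 26.0-fold lower than in the controls (log2 fold change −4.70, SE 0.22). By size of fall *Tlx3* held rank 5 among the 17505 tested genes, a description only, since the gene was chosen with this contrast known. Its relatives *Tlx1* and *Tlx2* did not pass the filter. *Tlx1* had at most 4 counts in any library, and *Tlx2* had 0 counts in all 6.

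The *Pou4f* genes encode the Brn3 factors, which act in the differentiation of sensory neurons (*Pou4f1*), retinal ganglion cells (*Pou4f2*) and hair cells (*Pou4f3*). *Pou4f2* (ENSMUSG00000031688, minus strand of chromosome 8, 78433010 to 78436645) gave 86, 70 and 58 counts in controls 1 to 3 and 3, 3 and 13 in mutants 1 to 3. Mutants 1 and 2 were at the floor of 3 counts, and mutant 3 lay above it but well below the lowest control. The fitted log2 fold change was −3.54 (SE 0.45), and −4.60 without mutant 3. The summed counts, 214 in the controls and 19 in the mutants, gave a ratio of 11.9 with a counting interval from 7.41 to 20.1 (exact, 95%, counting error only).

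*Pou4f1* (ENSMUSG00000048349, minus strand of chromosome 14, 104461676 to 104467999) showed no such fall. It had 39, 31 and 22 counts in the controls and 40, 34 and 43 in the mutants, or 2.54, 2.02 and 1.41 CPM and 2.31, 2.22 and 2.68 CPM. The groups overlapped, and the log2 fold change of 0.27 (SE 0.27) had a 95% interval from −0.49 to 1.03. A fall of the size fitted for *Pou4f2* lies outside this interval. Midbrain markers, given because the midbrain also expresses *Pou4f1*, summed to 11.9, 8.98 and 8.67 CPM in controls 1 to 3 and to 14.5, 8.08 and 16.1 CPM in mutants 1 to 3, and their part in the *Pou4f1* level was not tested. *Pou4f3* (ENSMUSG00000024497) had 1 count over all controls (exact Poisson 95% interval 0.0253–5.57) and 6 over all mutants (2.20–13.1). Both sums lay under the floor of 9 counts per group, so no fold is given and a difference was not detectable at this depth.

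In FPKM, the ratio of *Pou4f1* to *Pou4f2* was 0.311, 0.304 and 0.260 in the controls and 9.14, 7.77 and 2.27 in the mutants. *Pou4f2* was the higher of the pair in every control and the lower in every mutant. The mutant ratios rest on 3, 3 and 13 counts of *Pou4f2*, at the detection floor in mutants 1 and 2, so their size is uncertain. The transcripts of these genes share identical runs of at most 71 bases (*Pou4f1* and *Pou4f2*), and those of *Barhl1* and *Barhl2* of at most 23 bases, against reads of 150 bases.

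*Pax6* (ENSMUSG00000027168, plus strand of chromosome 2, 105668900 to 105697364) is a paired-box and homeobox factor of the rhombic lip, GNPs and granule neurons. It stood at 399, 352 and 349 CPM in the controls and at 188, 190 and 177 CPM in the mutants. The groups were far apart relative to their spread, and the level was 1.98-fold lower in the mutant (log2 fold change −0.99, SE 0.06). *Meis1* (ENSMUSG00000020160, minus strand of chromosome 11, 18879817 to 19018985), a cofactor of Pbx and Hox proteins that also acts in granule neuron development, stood at 141, 139 and 145 CPM and at 115, 127 and 125 CPM. Its groups did not overlap. The log2 fold change of −0.21 (SE 0.05, 95% interval −0.36 to −0.06) stayed inside the fold threshold, and the p threshold was not passed either. *Meis1* was thus the member with separated groups and the smallest difference.

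*Lhx2* (ENSMUSG00000000247, plus strand of chromosome 2, 38339281 to 38369733) encodes a LIM-homeobox factor of forebrain and eye that also marks *Atoh1*-derived commissural neurons of the spinal cord. It had 51, 10 and 15 counts in the controls and 27, 25 and 29 in the mutants. Control 1 alone was above all mutants, and controls 2 and 3 were below them. The log2 fold change was 0.02 (SE 0.52, 95% interval −1.42 to 1.46), and this interval leaves both a rise and a fall possible. Without control 1 the value was 1.03.

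**Figure D2:**
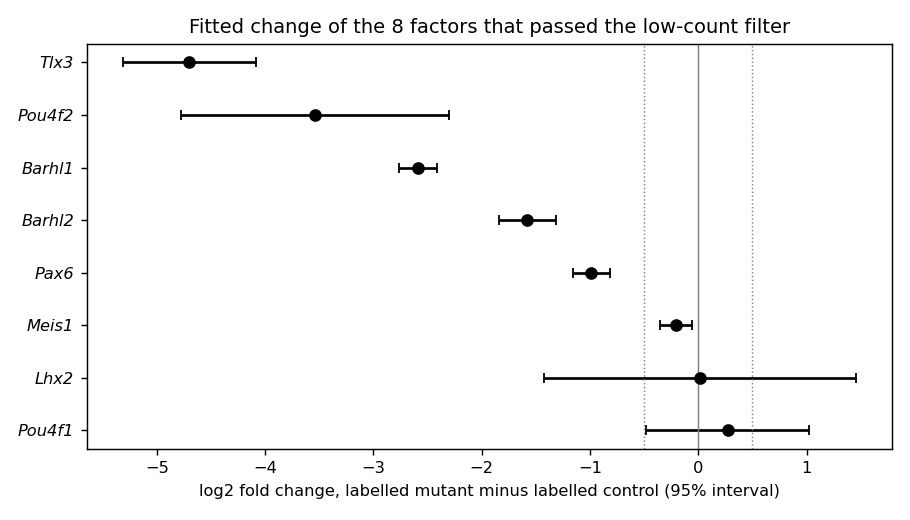
Fitted log2 fold change, labelled mutant minus labelled control, of the 8 factors that passed the low-count filter, with the 95% interval as the horizontal bar; dotted lines mark the fold threshold of 0.5 on either side of 0. The intervals of *Tlx3*, *Pou4f2*, *Barhl1*, *Barhl2* and *Pax6* lie wholly below the lower threshold, that of *Meis1* lies between 0 and the threshold, and those of *Lhx2* and *Pou4f1* span 0.

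Levels per length (FPKM) placed the members in a different order in each group. The length used covers all exons of a gene, 11694 bases for *Pax6*, 10532 for *Meis1* and 3905 for *Barhl1*. Their longest coding transcripts have 4427, 7553 and 3666 bases. Scaling by those would raise *Pax6* relative to *Barhl1*. The order, shares and ratios between genes given here and below therefore hold only for the length used. In the controls *Barhl1* was highest at 78.0 ± 4.46 FPKM (SD, n = 3), followed by *Pax6* (31.1 ± 2.36), *Tlx3* (24.5 ± 3.22), *Barhl2* (14.6 ± 0.677) and *Meis1* (13.3 ± 0.306). *Pou4f2* followed at 1.43 ± 0.290 FPKM, then *Pou4f1* (0.422 ± 0.119) and *Lhx2* (0.371 ± 0.329), whose values overlapped, and *Pou4f3* at 0.00912 ± 0.0158. In the mutants *Pax6* was highest (15.7 ± 0.538), then *Barhl1* (13.0 ± 0.759), *Meis1* (11.6 ± 0.559) and *Barhl2* (4.91 ± 0.485). *Tlx3* dropped to 0.935 ± 0.412 FPKM there, overlapping *Pou4f1* (0.511 ± 0.0538), and *Lhx2* was at 0.377 ± 0.0295. *Pou4f2*, at 0.122 ± 0.113 FPKM, overlapped *Pou4f3* (0.0523 ± 0.0459).

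The 9 genes together summed to 169, 159 and 163 FPKM in the controls and to 47.8, 46.5 and 47.4 FPKM in the mutants. *Barhl1* made up 47.6% ± 1.24 of this sum in the controls and 27.5% ± 1.38 in the mutants, and *Tlx3* 15.02% ± 2.34 and 1.97% ± 0.854 (SD, n = 3). The share of *Pax6* went the other way, from 18.9% ± 0.894 to 33.3% ± 1.34, as did that of *Meis1*, from 8.15% ± 0.303 to 24.5% ± 1.47, although neither gene had a higher level in the mutant. In FPKM *Barhl1* exceeded *Pax6* in every control, with a ratio of 2.51 ± 0.06, and was below it in every mutant, with a ratio of 0.827 ± 0.04. In CPM, which does not account for length, *Pax6* was the higher in every library. Which of the pair is higher in the controls thus depends on the measure, while the fall of the ratio does not rest on the lengths. *Pax6* and *Meis1* diverged less, with a ratio of 2.33 ± 0.20 in the controls and 1.36 ± 0.10 in the mutants.

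**Figure D3:**
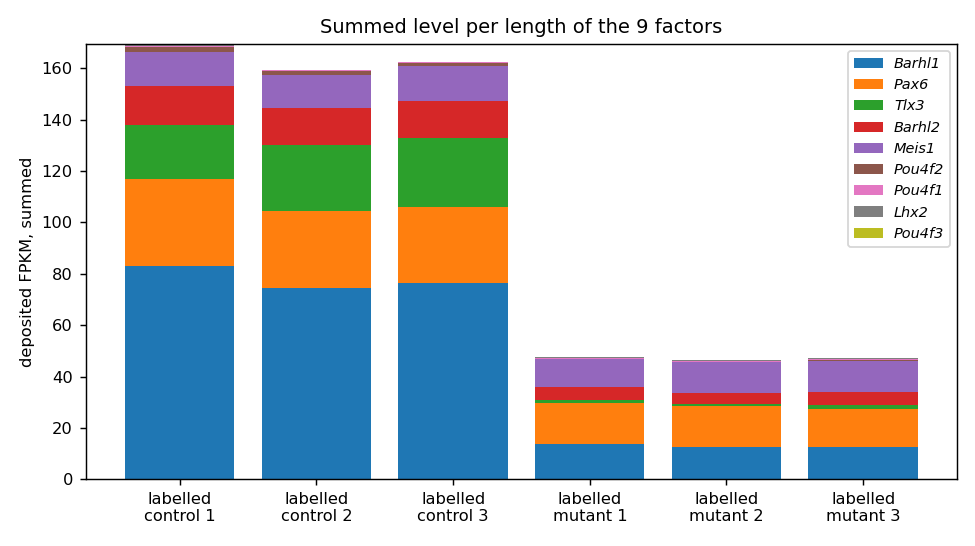
Summed level per gene length (deposited FPKM) of the 9 factors in each library, stacked by gene, on a linear axis from 0. The controls reach 159 to 169 FPKM with *Barhl1* as the largest part, and the mutants 46.5 to 47.8 FPKM with *Pax6*, *Barhl1* and *Meis1* as the largest parts.

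The genes called lower were set beside markers of the cell types that express them. All 6 GNP markers (*Gli1*, *Gli2*, *Mdga1*, *Sfrp1*, *Mfap4* and *Boc*) were called lower, with a median log2 fold change of −1.26 and a summed level of 770–862 CPM in the controls and 330–365 CPM in the mutants. Of 6 granule neuron markers 3 were called lower (*Neurod1*, *Cntn2* and *Rbfox3*), with a median of −0.57 and summed levels of 2824–2941 and 2057–2184 CPM. *Tlx3*, *Pou4f2*, *Barhl1* and *Barhl2* each had a larger fitted fall than the median of either list, *Pax6* lay between the medians, and *Meis1* was above both. None of 4 nuclear neuron and 3 unipolar brush cell markers was called lower, and 1 of each list was called higher (*Meis2* and *Calb2*). In each list 1 marker was lower by the p threshold alone. The nuclear neuron markers summed to 122–129 CPM in the controls and 112–116 CPM in the mutants, without overlap. The unipolar brush cell markers summed to 113–122 and 111–116 CPM, with overlap. Of 6 Purkinje cell markers 4 were called higher, with a median of 0.63. Of 4 GABAergic progenitor markers 1 was called in each direction, with summed levels of 300–315 and 423–437 CPM. Over all tested genes 3.63% were called lower and 3.03% higher. The marker lists were chosen with earlier results of these libraries known, so nothing is read from the comparison with those shares. The part of cell numbers in the members' differences was not tested.

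Relatives and partners of the 9 factors were counted next, to see how far the difference reached within each family. Of 49 relatives, 35 were tested, 1 was called lower and 3 higher, and their median log2 fold change was 0.20. These counts compare with 3.63% lower and 3.03% higher over all tested genes. None of the 8 POU relatives tested was called, and their median was −0.0061. *Pou3f2* and *Pou3f3*, neural POU factors of the Brn2 and Brn1 type, had log2 fold changes of −0.12 (edgeR adjusted p = 0.297) and 0.10 (edgeR adjusted p = 0.252).

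Of the 7 LIM-homeobox relatives tested, none was called. *Lhx1* and *Lhx5*, which act in Purkinje cell differentiation, passed the p threshold but not the fold threshold, at −0.38 (SE 0.05, edgeR adjusted p = 7.78e-04) and 0.43 (SE 0.07, edgeR adjusted p = 0.00139). Of 6 LIM cofactors, which bind LIM domains, *Lmo3* and *Ldb2* were called higher. *Lmo3* stood at 30.8, 28.6 and 27.9 CPM in the controls and at 51.4, 43.7 and 50.01 CPM in the mutants, with a log2 fold change of 0.73 (SE 0.09, edgeR adjusted p = 3.04e-04). The groups did not overlap. *Ldb2* had a log2 fold change of 0.55 (SE 0.11, edgeR adjusted p = 0.00639), just past both thresholds, and was not called in 10 of 15 other fits.

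None of the 4 Pax relatives tested was called. *Pax2*, a factor of GABAergic interneuron progenitors, and *Pax3* passed the p threshold at 0.46 (SE 0.05, edgeR adjusted p = 1.70e-04) and 0.39 (SE 0.06, edgeR adjusted p = 0.00106), so that neither shared the direction of *Pax6*. Among 10 TALE relatives and partners 1 was called in each direction. *Meis2*, a relative of *Meis1* that marks nuclear neurons, stood at 24.8, 22.9 and 17.9 CPM in the controls and at 34.8, 32.9 and 35.7 CPM in the mutants, with a log2 fold change of 0.66 (SE 0.12, edgeR adjusted p = 0.00270). It was not called without mutant 1 (adjusted p = 0.0118 in edgeR) or without mutant 3 (adjusted p = 0.0140 in edgeR). *Tgif1*, a TALE repressor, stood at 21.4, 24.3 and 21.4 CPM and at 14.0, 14.3 and 14.6 CPM, with a log2 fold change of −0.65 (SE 0.09, edgeR adjusted p = 7.83e-04).

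**Figure D4:**
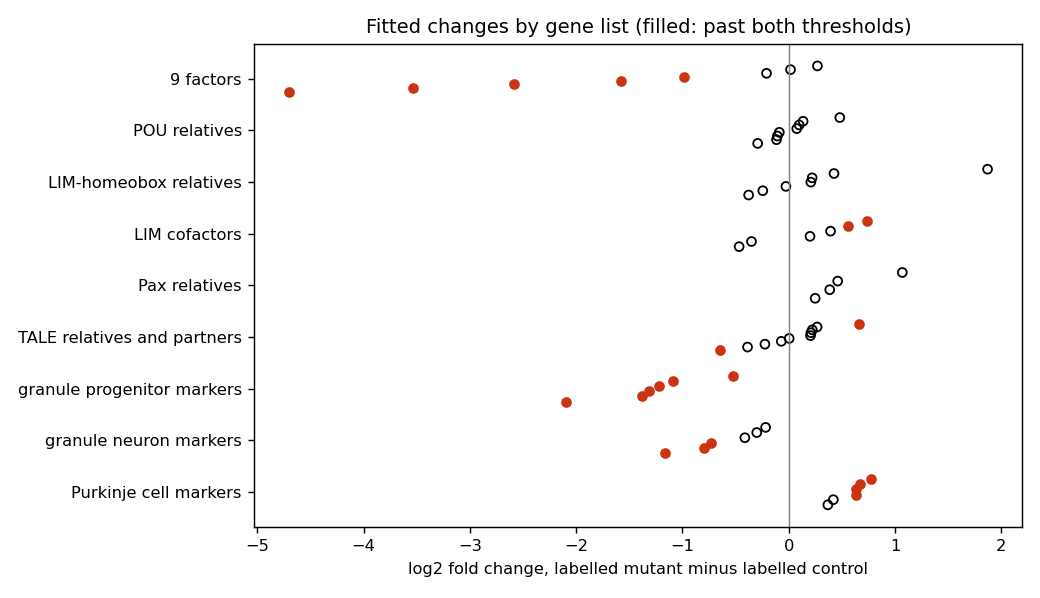
Fitted log2 fold change, labelled mutant minus labelled control, of each tested gene by list, with filled points for genes past both thresholds; the top row holds the 8 tested members. Filled points of the members and the granule lineage markers lie below 0, those of the Purkinje cell markers above 0, and the relatives hold 4 filled points between −0.65 and 0.73.

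Of 8 genes reported elsewhere to depend on *Barhl1*, *Pax6*, *Pou4f1* or *Tlx3*, 6 were tested and 3 were called, all lower. Over all tested genes 3.63% were called lower and 6.66% in either direction. The list was chosen with earlier results of these data known, so nothing is read from the comparison with that share. Whether these genes responded to the members was not tested. *Ntf3*, the neurotrophin NT-3, which depends on *Barhl1* in granule neurons, stood at 12.4, 13.2 and 14.6 CPM in the controls and at 1.4996, 0.847 and 1.37 CPM in the mutants. This was a log2 fold change of −3.42 (SE 0.20, edgeR adjusted p = 5.52e-06), with no overlap. The neighbouring nicotinic receptor genes *Chrna3* and *Chrnb4* had 925, 925 and 894 against 112, 95 and 88 counts, and 247, 260 and 264 against 2, 14 and 9 counts. Their log2 fold changes were −3.29 (SE 0.09, edgeR adjusted p = 7.08e-08) and −4.99 (SE 0.32, edgeR adjusted p = 1.07e-05). Both groups were again separate in each gene, and *Chrnb4*, under the floor in mutant 1, had a log2 fold change of −5.61 without mutant 2 and −2.26 on the scale of log2(FPKM + 1).

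The other 3 tested genes were not called. *Unc5c*, a netrin receptor, had a log2 fold change of −0.18 (SE 0.18, edgeR adjusted p = 0.493), which ranged from −0.43 without mutant 2 to −0.048 without mutant 3. *Lmx1b*, a LIM-homeobox gene, stood at 0.651, 0.846 and 0.642 CPM in the controls and at 2.54, 0.782 and 4.55 CPM in mutants 1 to 3, with a log2 fold change of 1.87 (SE 0.56, edgeR adjusted p = 0.0345). Without mutant 3 it was 1.23, and without mutant 2 it was 2.31 and called. The choroid plexus marker sums given above, 192, 10.6 and 741 CPM, had the same order over the 3 mutants, and their part in the *Lmx1b* level was not tested. *Runx3* and *Prrxl1* did not pass the filter.

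Genes at the same loci were examined because the strand setting of the counts is not stated, so reads of a gene and of an antisense partner cannot be told apart. *Pax6os1*, antisense to *Pax6* and overlapping its start, had 55, 60 and 57 counts in the controls and 29, 25 and 21 in the mutants, with a log2 fold change of −1.27 (SE 0.22, edgeR adjusted p = 0.00247). Its mean level of 3.72 ± 0.170 CPM in the controls (SD, n = 3) was small beside that of *Pax6*. Within *Meis1*, *Gm37818*, *2900018N21Rik* and *Gm16141* were tested and not called (log2 fold changes −0.37, −1.12 and −0.21, with edgeR adjusted p = 0.242, 0.177 and 0.754), and *Gm16140* did not pass the filter. Without mutant 2, *2900018N21Rik* was called at −2.15 (edgeR adjusted p = 0.00648).

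Of 34 other tested genes within 250 kb of a member, 6 (17.6%) were called lower and none higher, where 3.63% of all tested genes were called lower. The windows surround members chosen on this contrast, and some of the 6 overlap each other. *Paupar* lies within the span of *Pax6os1*, and *Gm12116* overlaps *Ranbp17*. Nothing is therefore read from the comparison with that share. The 6 were named after their values were seen. *Gm12116*, 465 bases from *Tlx3* and on the opposite strand, had a log2 fold change of −1.26 (SE 0.14, edgeR adjusted p = 1.97e-04), and *Ranbp17*, also beside *Tlx3*, −0.67 (SE 0.11, edgeR adjusted p = 0.00174). *Ddx31*, 2107 bases beyond the 3′ end of *Barhl1* on the opposite strand, had −0.53 (SE 0.12, edgeR adjusted p = 0.00860). *Paupar*, a noncoding gene 7556 bases from *Pax6*, had −1.27 (SE 0.19, edgeR adjusted p = 0.00127). The others were *Pax6os1* and *8430419K02Rik*, 5507 bases from *Meis1*, at −1.07 (SE 0.16, edgeR adjusted p = 0.00115). No tested neighbour of *Barhl2*, *Pou4f1*, *Pou4f2*, *Pou4f3* or *Lhx2* was called, but these had only 2, 1, 3, 4 and 3 tested neighbours.

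The genes whose pattern over the 6 libraries was most like that of each member were found by the Euclidean distance of log2 CPM centred on the control mean. For *Barhl1* these were *Gm13479* (distance 0.699), *Hsd11b2* (0.735) and *Gm17080* (0.760), and for *Barhl2* they were *Ucma* (0.193), *Uncx* (0.240) and *Nrn1* (0.242). For *Tlx3* they were *Fgf8* (1.52), *Gm8615* (1.96) and *Insm2* (2.03), the least close of any member. *Pou4f2* was nearest to *Ntf3* (1.37), *C230057A21Rik* (1.40) and *Gm13479* (1.51). *Pax6* had closer neighbours in *E2f7* (0.101), *Cbfa2t3* (0.101) and *Chrd* (0.112), and *Meis1* the closest in *Zbtb18* (0.0418), *Eri1* (0.0446) and *Smndc1* (0.0520). *Pou4f1* was nearest to *Henmt1* (0.176), *Ccdc151* (0.195) and *Cfap300* (0.204), and *Lhx2* to *Ccr10* (0.482), *Zan* (0.582) and *Tas1r3* (0.604). The distances rest on 6 libraries, of which 3 share a group each. Centring removes the level of each gene, so the distances describe likeness of the deviations from the control mean, not of level.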

How the data were processed

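Poly(A) RNA of 6 P1 cerebella was sequenced, and samples were grouped by their labelled genotype. The deposited counts per gene were made by the authors with HISAT2 2.0.5 on mm10 and featureCounts 1.5.0-p3, as the submitters' processing notes list. Strand setting and annotation release are not given in the sources used here. The authors derived the deposited FPKM values from these counts and the length of each gene.

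The 9 members and all lists were chosen with earlier results of these data known. Genes were tested with the quasi-likelihood functions of edgeR 4.0.16 in R 4.3.3, after filterByExpr and TMM scaling, with Benjamini-Hochberg adjustment over the 17505 genes kept. CPM values use TMM-scaled library totals. Count intervals hold counting error alone. With 3 libraries against 3, exact two-sided permutation cannot go below p = 0.1, so p-values rest on the model. Nothing in the labels ties replicates to separate litters, and p-values measure the spread between these libraries. Same-group libraries differed by more than sampling noise (chi-square per gene 3.48–9.23).

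Named genes were the members, *Tox3*, *Atoh1*, called relatives (at most 3 per direction and list) with *Tlx1*, *Tlx2* and *Meis2*, 8 downstream genes (1 of them is not reported here), annotated overlapping genes with at least 10 counts, and the 3 genes nearest in pattern to each member. Others, including the relatives that passed the p threshold alone, *Pou3f2*, *Pou3f3*, cell type markers and neighbours, were named after their values were seen. Alternatives were DESeq2 1.42.0, its size factors, library size alone, other count filters, the replicate block, limma 3.58.1 with its trend option on log2 FPKM values with 1 or 0.1 added, for genes at a mean of at least 0.1 FPKM, Y-chromosome level as a covariate, other thresholds and each library left out in turn. Scripts were tested on simulated data.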

Additional observations from a re-analysis of the deposited data

How the results depend on the processing

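The same 5 members were called lower, and none higher, in edgeR and in each of 15 other fits at the same thresholds. These fits reuse the libraries whose contrast was known when the members were chosen. They show dependence on processing only and are no independent support. Their log2 fold changes ranged from −2.64 to −2.50 (*Barhl1*), −1.65 to −1.41 (*Barhl2*), −4.92 to −3.74 (*Tlx3*), −4.60 to −1.11 (*Pou4f2*) and −1.02 to −0.92 (*Pax6*). The values nearest 0 of *Tlx3* and *Pou4f2* came from limma-trend on log2(FPKM + 1), whose pseudocount compresses low levels. *Lhx2* turned to −0.094 with the Y-chromosome covariate and ranged from −0.36 to 1.03 with each library left out. *Gm16141* ranged from −0.44 to 0.0085 there, above 0 without mutant 2.

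Over all genes, limma-trend called 360 lower and 243 higher on log2(FPKM + 1) and 416 and 297 on log2(FPKM + 0.1), with 0 relatives lower and 1 higher on the first and 1 higher on the second. An adjusted p under 0.05 without a fold threshold gave 2252 lower and 2136 higher genes and 5 and 9 relatives. A log2 fold change beyond 1 gave 163 and 81 genes and 0 relatives in either direction. With each library left out, 349–569 genes were called higher (349 without mutant 3), and 1–3 relatives (1 without mutant 1 and 1 without mutant 3). *Ldb2* was lost in 10 fits, *Meis2* in 4, *Pax6os1* in 3 and *Tgif1* in 1, and *Lmx1b* was called in 3 and *2900018N21Rik* in 2 (without mutant 2 and with no filter on low counts). The causes were not tested.

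Deviations from the group mean had correlations of 0.243, 0.265 and −0.163 between same-numbered libraries. Between control and mutant libraries of unlike number they ranged from −0.416 to 0.268. With so few libraries, these values cannot decide whether the numbers pair the samples. With the replicate block 696 genes were called lower and 561 higher, the relatives called higher were 2 (*Ldb2* was lost), and no call of a member changed.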

Other observations

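Apart from the members, the deposited annotation placed 65 tested genes in its homeobox family, of which 3 were called lower and 2 higher (7.69%, against 6.66% of all tested genes). These genes were named after their values were seen. *Uncx*, a paired-type homeobox gene, was at 103 ± 6.51 CPM in the controls and 35.1 ± 3.998 CPM in the mutants (SD, n = 3; log2 fold change −1.55, SE 0.09, edgeR adjusted p = 4.84e-06). *En1*, a patterning gene of midbrain and cerebellum, was at 32.7 ± 3.54 and 11.3 ± 3.30 CPM (log2 fold change −1.54, SE 0.17, edgeR adjusted p = 2.34e-04). *Evx2*, an even-skipped homeobox gene, was higher, at 2.27 ± 0.791 and 5.39 ± 0.254 CPM (log2 fold change 1.25, SE 0.25, edgeR adjusted p = 0.00512). The others were *Tgif1* and *Meis2*.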
